A study of Mus musculus with 8 samples.

Results

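Hepatic uptake and efflux drug transporters were examined in the fasted female mouse liver as 9 genes chosen by name from a table of 45706 genes. Of these, 5 carry compounds into the hepatocyte (Slco1a1, Slco1a4, Slco1b2, Slco2b1 and Slc22a7) and 4 carry them out (Abcc2, Abcc3, Abcb1a and Abcg2). RNA sequencing was performed on the liver of 4 wild-type (WT) and 4 PLIN5 S155A mice on the C57BL/6J background, with 1 library per mouse. All 8 mice were female, 4 months old and fasted overnight, so fed animals are not part of these groups. The S155A mice carry, on both alleles and in every tissue, a CRISPR-made alanine codon in place of a serine codon of Plin5, the gene of a lipid droplet protein, so the liver is not the only organ edited, and the methods name a founder mouse as the origin of the line. The comparison asks whether the level of transporter transcripts differed between the genotypes after the fast.

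Uptake transporters of the Slco family (organic anion transporting polypeptides) sit in the sinusoidal membrane, which faces the blood, and take up bile acids, bilirubin, hormone conjugates and many drugs such as statins. Slc22a7 encodes OAT2, an organic anion transporter of the same membrane. The efflux transporters are ABC proteins that use ATP. Abcc2 (MRP2), Abcb1a (P-glycoprotein) and Abcg2 (BCRP) export conjugates and drugs across the canalicular membrane into bile, whereas Abcc3 (MRP3) returns glucuronides to blood. The nuclear receptors CAR and PXR, the bile acid receptor FXR, AHR, NRF2 and HNF4a are known regulators of these genes.

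Some of the transporters are close relatives, which bears on how reads could be assigned to them. Slco1a1 (ENSMUSG00000041698) lies at chr6:141907282-141946962 on the reverse strand of GRCm38, Slco1a4 (ENSMUSG00000030237) at chr6:141805440-141856199 on the reverse strand, and Slco1b2 (ENSMUSG00000030236) at chr6:141629518-141686646 on the forward strand. The coding sequences of Slco1a1 and Slco1a4 share an identical run of 132 bases, longer than a single 100 base read. The stretch around it is shown because reads from it fit both genes. It spans coding bases 657 to 818 of 2013 and runs from exon 6 into exon 7 of 14 in each gene (chr6:141925621-141932457 and chr6:141825071-141826273, reverse strand, GENCODE release M21 on GRCm38). Read 5′ to 3′ in the direction of transcription, capitals mark the 7 of 162 bases at which the genes differ.
Slco1a1: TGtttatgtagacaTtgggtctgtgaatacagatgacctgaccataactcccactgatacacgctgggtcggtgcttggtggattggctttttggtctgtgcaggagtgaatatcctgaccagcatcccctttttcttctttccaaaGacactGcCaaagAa
Slco1a4: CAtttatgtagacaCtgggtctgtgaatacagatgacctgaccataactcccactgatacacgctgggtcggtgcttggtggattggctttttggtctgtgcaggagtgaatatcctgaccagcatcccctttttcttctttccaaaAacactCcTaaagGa

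Apart from such stretches the pair can be told apart. Of all 100 base words in the annotated transcripts, 0.614% of those of Slco1a1 and 0.64% of those of Slco1a4 occur in another gene. Abcb1a (ENSMUSG00000040584, chr5:8660077-8748575, forward strand) shares the most, with 9.23% of its 100 base words found elsewhere, nearly all in Abcb1b, the other mouse P-glycoprotein gene, and a longest identical coding run of 338 bases. The values of Slco1a1 and Abcb1a are therefore uncertain to the extent that reads were divided between relatives. The other 6 genes shared no 100 base word. They are Slco2b1 (ENSMUSG00000030737, chr7:99657804-99711340, reverse strand), Slc22a7 (ENSMUSG00000067144, chr17:46432183-46438457, reverse strand), Abcc2 (ENSMUSG00000025194, chr19:43782192-43840740, forward strand), Abcc3 (ENSMUSG00000020865, chr11:94343295-94392997, reverse strand), Abcg2 (ENSMUSG00000029802, chr6:58584523-58695676, forward strand) and Slco1b2. Slco2b1 overlaps the antisense genes Gm15635 and Gm34280, Slco1a1 overlaps Gm22036, and Abcb1a overlaps Gm42684 and Gm42686. The library kit marks strand, but whether the counting used it is not given in the sources used here.

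Promoter windows around annotated transcript starts from RefSeq (GRCm38.p6) were found for 7 of the 9 genes, 11 windows in all, and were searched on both strands for letters bound by known regulators. Matches are descriptions of the letters only. AGGTCA, bound by many nuclear receptors, was in 5 of 11 windows, those of Slco1a1, Slco1b2, Abcc2 and Abcg2, against 16.3% of 32851 windows of all genes. TGACNNNGC, the antioxidant response core bound by NRF2, was in 2 of 11 windows, of Abcc2 and Abcb1a, against 12.4% of all. The Abcb1a window (chr5:8566841-8567140) lies at a RefSeq start upstream of the gene as given above, and not at its annotated start there. GCGTG, bound by AHR, was in 1 of 11 windows, of Abcg2, against 32.4% of all. None of the 11 windows held the direct repeats of AGGTCA spaced by 1, 3 or 4 bases, or its inverted repeat spaced by 1 base. Over all windows these exact repeats were in 0.04%, 0.006%, 0.015% and 0.009%, so their absence from 11 windows tells little. Some matches are shown in their surroundings to let the letters be seen, 5′ to 3′ on the strand of the gene with the motif in capitals. They come from Abcc2 (chr19:43782200-43782228, forward strand, first motif base at -98 from the start) and Slco1a1 (chr6:141946971-141946996, reverse strand, first motif base at -24). Positions are counted from the RefSeq start of each window. The Abcc2 stretch is upstream of that start but lies inside the gene as given above.
Abcc2, antioxidant response core: ctcactgggaTGACATAGCattcatctag
Slco1a1, nuclear receptor motif: ttgtataagaAGGTCAagcaagtctt

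The libraries held between 39709785 and 54540864 counts, and S155A replicate 3 was the shallowest. The edited gene Plin5 had 206 ± 32.3 CPM in WT and 328 ± 118 CPM in S155A mice (SD, n = 4 each), with overlap. Its log2 fold change was 0.67 (standard error 0.24, edgeR unadjusted p = 0.0193, adjusted p = 0.993, exact permutation p = 0.114). Gene counts cannot read the edited codon. CPM is the estimated count per 1000000 counts of the library after TMM scaling. Both liver and hepatocytes are named in the labels, and the methods describe whole liver. Hepatocyte markers summed to 92678 to 133749 CPM per mouse, and all 9 lists of cell type markers overlapped between genotypes, although endothelial, stellate, Kupffer and blood cell markers were detected too. In S155A replicate 3 the lymphocyte list stood at 2063 CPM against at most 46.3 CPM in the other mice, and in WT replicate 2 the pancreatic acinar list stood at 44.2 CPM against at most 6.43 CPM. WT replicate 4 had the highest red blood cell list, at 2647 CPM against at most 1462 CPM. It was also highest for the endothelial list (211 CPM against at most 167 CPM) and the stellate list (340 CPM against at most 267 CPM). In whole liver, fewer cells of a type and less RNA per cell cannot be told apart. The animal numbers in the labels fall into 2 ranges, called here the low series (89 to 123, with replicates 1 and 4 of WT and of S155A) and the high series (830 to 869, with replicates 2 and 3 of both). What the series stand for is not stated.

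The transporters covered a wide range of levels in these livers. Per kilobase of exonic length, Slco1b2, the mouse relative of the human statin transporters, was highest at 100.0 ± 12.6 CPM per kb (SD over 8 mice), followed by Abcc3 at 81.0 ± 9.32 and Abcc2 at 47.4 ± 5.19 CPM per kb. Slco2b1 was at 30.5 ± 5.05 and Slco1a4 at 27.7 ± 9.87 CPM per kb. The low group was Abcg2 at 3.32 ± 0.692, Slc22a7 at 2.39 ± 1.12, Abcb1a at 0.998 ± 0.276 and Slco1a1 at 0.213 ± 0.332 CPM per kb. Neighbours in this order whose 8 mice did not overlap were Abcc3 and Abcc2, Abcc2 and Slco2b1, and Slco1a4 and Abcg2. Each other pair of neighbours overlapped in range on this length, namely Slco1b2 and Abcc3, Slco2b1 and Slco1a4, and neighbours among the 4 low genes. These ranges take each gene by itself, and the order of 2 genes within the same mouse was not examined. Beyond neighbours, the highest mouse of Slco1a4 (45.3 CPM per kb) was above the lowest of Abcc2 (39.5 CPM per kb). Exonic length joins all transcripts of a gene. The longest single transcript is 3307 of 4929 bases in Slco1b2 but 5005 of 5698 in Abcc3. The order on that length was not examined and may differ. The uptake and efflux groups were not separated by level, since each held both abundant and scarce transcripts.

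**Figure D1:**
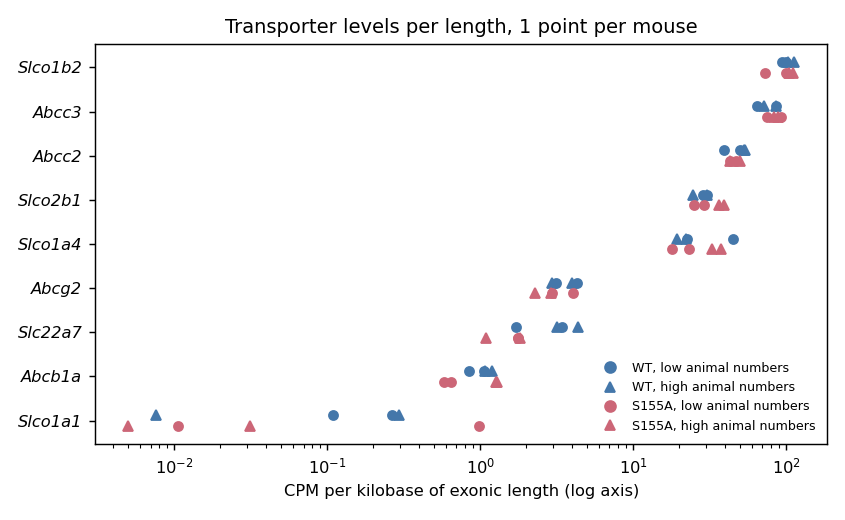
Levels of the 9 transporter genes as CPM per kilobase of exonic length on a log axis, with 1 point per mouse, colour for genotype and shape for animal number series. Slco1b2 and Abcc3 lie at the top between 65.0 and 113 CPM per kb, and Slco1a1 spreads from 0.00500 to 0.982 CPM per kb.

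None of the 9 transporters was called as different between genotypes after adjustment over the 14629 genes tested (edgeR quasi-likelihood test, adjusted p between 0.993 and 0.999). This stands against a background of 0% called, since edgeR called 0 genes in the whole table, and DESeq2 called 6 genes, or 0.0411%, none of them a transporter of this group. At an unadjusted p under 0.05, 1 of the 9 passed, Slc22a7, which was lower in S155A, against 3.4% of all genes in either direction and 1.98% in the lower direction. In DESeq2 it was again 1 of 9, Slc22a7, against 4.07% of all genes. All 9 passed the filter on low counts. The values of the genotypes overlapped for every one of the 9, while 2.3% of all genes tested did not overlap. The median log2 fold change of the 9 genes was -0.077, with 4 higher and 5 lower, beside a median of -0.005 over all genes tested, of which 7138 were higher and 7491 lower. For the uptake genes the median was 0.035 and for the efflux genes -0.126. Exact permutation p-values below are two-sided, and the smallest that 4 against 4 mice allow is 0.0286.

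**Figure D2:**
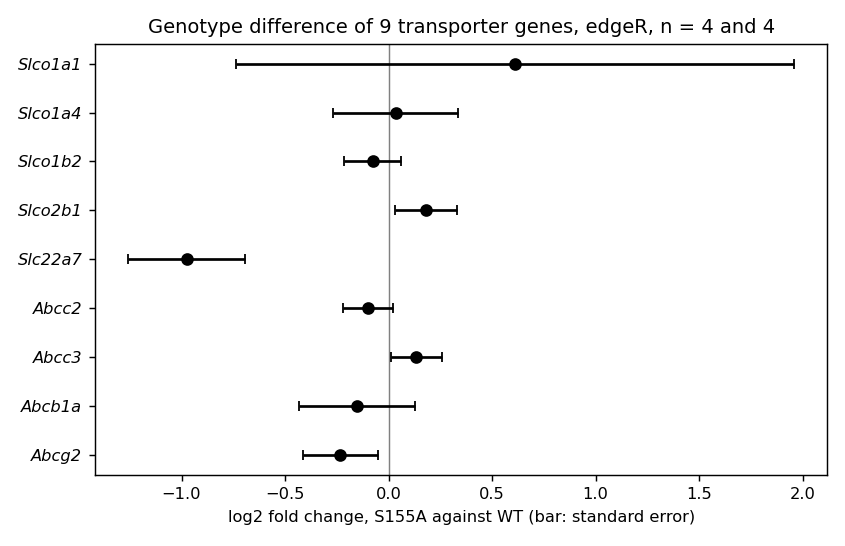
Log2 fold change of S155A against WT for the 9 transporter genes from edgeR, with bars of 1 standard error, n = 4 mice per genotype. Slc22a7 lies at -0.97 away from 0, Slco1a1 has the widest bar with a standard error of 1.35, and the other genes lie between -0.23 and 0.18.

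Slc22a7, the organic anion transporter OAT2, had the smallest p of the group. In the WT mice it was at 7.20, 6.66, 9.18 and 3.61 CPM for replicates 1 to 4, from 386, 334, 436 and 183 counts. In the S155A mice it was at 3.69, 3.85, 2.30 and 3.70 CPM, from 199, 186, 87 and 187 counts. Of the WT mice, 3 stood above every S155A mouse, and WT replicate 4 lay among the S155A mice, so the genotypes overlapped. The means were 6.66 ± 2.30 CPM in WT and 3.38 ± 0.727 CPM in S155A mice (SD, n = 4 each). The log2 fold change was -0.97 (standard error 0.28), a level of 0.509 times that of WT, with an unadjusted p of 0.00624, rank 49 of the genes tested, and an adjusted p of 0.993 in edgeR. DESeq2 gave an unadjusted p of 0.000956 and an adjusted p of 0.445, and the exact permutation test gave p = 0.114. The lowest mouse, S155A replicate 3, is also the shallowest library and the one with the high lymphocyte markers, and without it the log2 fold change was -0.83. WT replicate 4 is the mouse with the highest red blood cell, endothelial and stellate markers, and without it the log2 fold change was -1.18. The part of cell composition in these values was not tested.

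**Figure D3:**
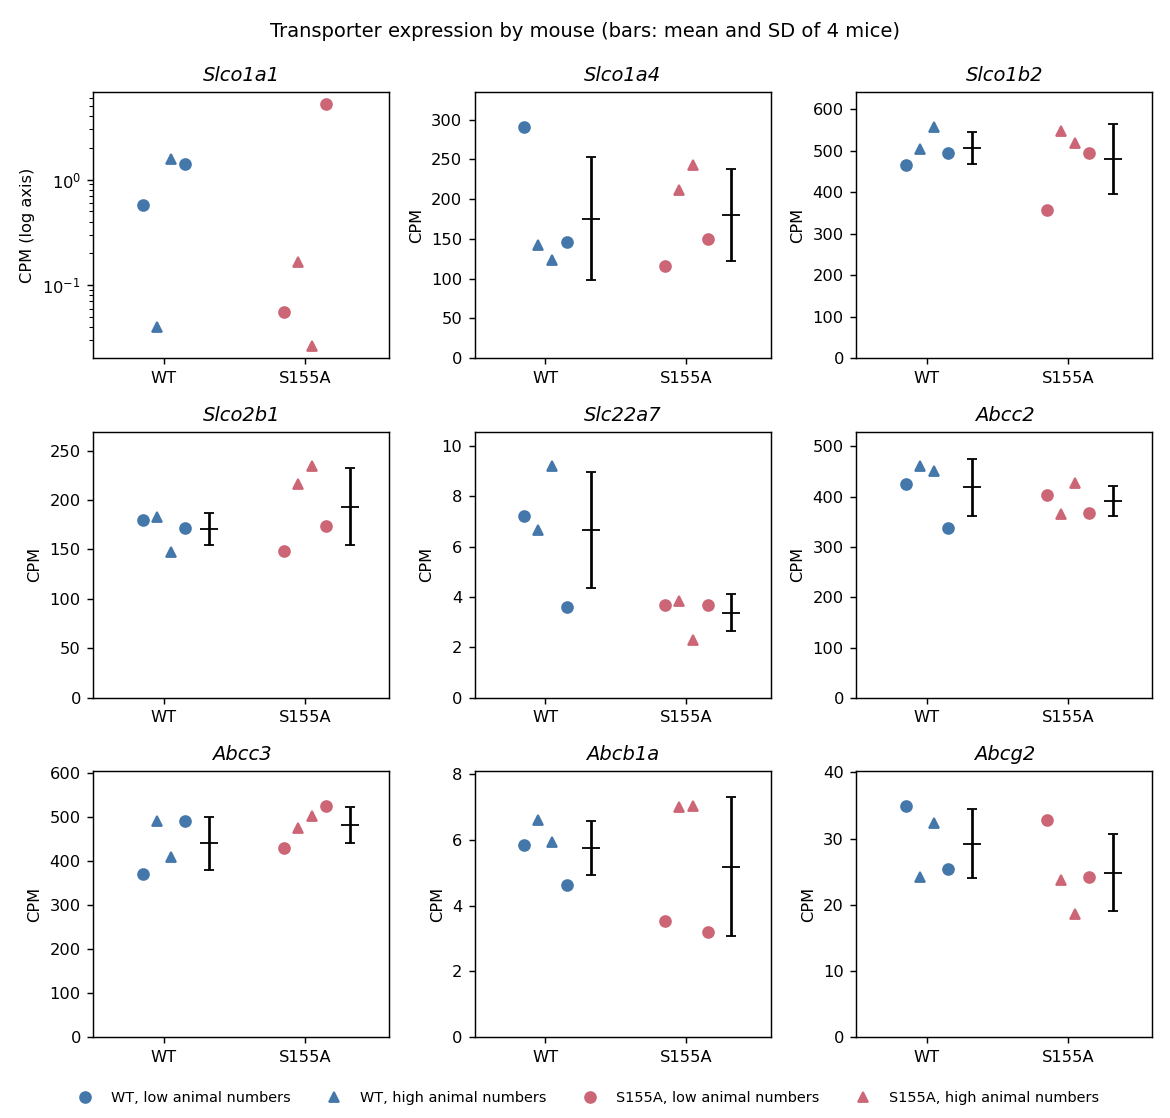
CPM of each transporter gene by mouse, with genotype on the horizontal axis, circles for low and triangles for high animal numbers, and bars for the mean and SD of 4 mice except for Slco1a1, which is on a log axis. The genotypes overlap in all 9 panels, and in the Slc22a7 panel 3 WT mice lie between 6.66 and 9.18 CPM, above the S155A mice.

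Slco1b2, the liver-specific OATP that takes up statins and bilirubin glucuronide, was at nearly the same level in both genotypes. The WT mice were at 466, 504, 557 and 496 CPM, and the S155A mice at 358, 547, 519 and 495 CPM. S155A replicate 1 alone was below all other mice, and the other 7 lay within 466 to 557 CPM. The means were 506 ± 38.1 and 480 ± 84.0 CPM (SD, n = 4 each), with a log2 fold change of -0.077 (standard error 0.14, edgeR adjusted p = 0.996, exact permutation p = 0.714). Without S155A replicate 1 the direction turned, at 0.041.

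Slco1a4, encoding OATP1A4, which takes up bile acids, digoxin and steroid conjugates, varied more between mice than between genotypes. The WT mice were at 291, 142, 123 and 145 CPM, and the S155A mice at 115, 211, 243 and 149 CPM. WT replicate 1 was the highest of the 8 mice and was 2.52 times the lowest, S155A replicate 1. The means were 175 ± 77.5 and 180 ± 57.8 CPM (SD, n = 4 each), with a log2 fold change of 0.035 (standard error 0.30, edgeR adjusted p = 0.999, exact permutation p = 0.914). The direction rested on single mice and on the scaling, with 0.40 without WT replicate 1, -0.15 without S155A replicate 3 and -0.011 with the total count per library in place of TMM.

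Slco1a1, encoding OATP1A1, is known as a male-predominant transcript in mouse liver, and it was near the limit of detection in these females. The WT mice had 31, 2, 74 and 71 counts, or 0.578, 0.0399, 1.56 and 1.40 CPM. The S155A mice had 3, 8, 1 and 262 counts, or 0.0556, 0.165, 0.0264 and 5.18 CPM. S155A replicate 4 was the highest of the 8 mice and the other 3 S155A mice were among the lowest 4. The highest mouse was 196 times the lowest, though 3 mice had 3 counts or fewer, where counting error is large. The fitted log2 fold change was 0.61 with a standard error of 1.35 (edgeR adjusted p = 0.996, exact permutation p = 0.600), and it was -3.36 without S155A replicate 4. It was also below 0 with limma-voom and with either block, so the direction is not determined by these mice.

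Slco2b1, encoding OATP2B1, which takes up steroid sulfates and statins, had a higher mean in S155A mice within overlapping values. The WT mice were at 180, 183, 147 and 171 CPM, and the S155A mice at 149, 216, 234 and 174 CPM. S155A replicates 2 and 3 were above every WT mouse, and S155A replicates 1 and 4 lay among the WT mice. The means were 170.3 ± 16.3 and 193 ± 38.8 CPM (SD, n = 4 each), with a log2 fold change of 0.18 (standard error 0.15, edgeR adjusted p = 0.993, exact permutation p = 0.371). Without S155A replicate 3 it was 0.077.

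Among the efflux genes, the abundant pair showed the smallest spread. Abcc2, which exports bilirubin glucuronide and glutathione conjugates into bile, was at 424, 460, 452 and 337 CPM in WT and at 404, 365, 426 and 366 CPM in S155A mice. Its means were 418 ± 56.2 and 390.4 ± 29.8 CPM (SD, n = 4 each), with a log2 fold change of -0.099 (standard error 0.12, edgeR adjusted p = 0.993, exact permutation p = 0.486). The lowest mouse was WT replicate 4, and the highest was 1.36 times the lowest, the narrowest range of the 9 genes.

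Abcc3, the sinusoidal export pump for glucuronides, was at 370, 491, 408 and 490 CPM in WT and at 430, 475, 502 and 525 CPM in S155A mice. Its means were 440.0 ± 60.8 and 483 ± 40.8 CPM (SD, n = 4 each), with a log2 fold change of 0.13 (standard error 0.12, edgeR adjusted p = 0.993, exact permutation p = 0.257). WT replicates 1 and 3 were the lowest mice, and WT replicates 2 and 4 lay among the S155A mice.

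Abcb1a, the P-glycoprotein gene that pumps out many lipophilic drugs, was at 5.84, 6.60, 5.94 and 4.64 CPM in WT and at 3.52, 6.99, 7.02 and 3.20 CPM in S155A mice. The S155A mice were thus split, with replicates 2 and 3 above and replicates 1 and 4 below every WT mouse. Within each series the genotypes were therefore apart in opposite directions, as in 9.49% of all genes tested. The means were 5.75 ± 0.815 and 5.18 ± 2.11 CPM (SD, n = 4 each), with a log2 fold change of -0.15 (standard error 0.28, edgeR adjusted p = 0.996, exact permutation p = 0.457), and 0.021 without S155A replicate 4. Its relative Abcb1b, with which it shares reads, was lower still at 1.20 ± 0.868 CPM in WT and 0.662 ± 0.430 CPM in S155A mice (edgeR log2 fold change -0.86, standard error 0.60, adjusted p = 0.993).

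Abcg2, which exports sulfate conjugates, urate and many drugs, was at 34.9, 24.2, 32.4 and 25.4 CPM in WT and at 32.8, 23.8, 18.7 and 24.2 CPM in S155A mice. The lowest mouse was S155A replicate 3, but S155A replicate 1 was above 3 of the 4 WT mice. The means were 29.2 ± 5.23 and 24.9 ± 5.85 CPM (SD, n = 4 each), with a log2 fold change of -0.23 (standard error 0.18, edgeR adjusted p = 0.993, exact permutation p = 0.200). Without S155A replicate 3 it was -0.12, and without S155A replicate 1 it was -0.39.

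The genotype differences were then set side by side within each animal number series, where 2 mice of each genotype allow no test of their own. Of the 9 genes, 5 had differences of opposite sign in the series, beside 54.9% of all genes tested. The widest gap between series with a change of sign was that of Slco1a4, whose difference in mean log2 CPM was -0.65 among low-numbered and 0.77 among high-numbered mice. Slco2b1 was at -0.13 and 0.46, and Abcb1a at -0.63 and 0.16. Slc22a7 was below WT in both series, at -0.46 and -1.38, and its genotypes overlapped in the low series only. Within the high series, the genotypes did not overlap for 6 of 9 genes, with Slco1a4, Slco2b1 and Abcb1a higher and Slc22a7, Abcc2 and Abcg2 lower in S155A, beside 46.5% of all genes tested. Within the low series they did not overlap for 1 of 9, Abcb1a, beside 32.9% of all genes. Abcc3 was above WT in both, at 0.16 and 0.12. For Slco1b2 the differences were -0.19 and 0.0067, for Abcc2 0.025 and -0.21, for Abcg2 -0.080 and -0.41, and for Slco1a1 -0.41 and -1.61. In the low series, Slco1a1 was at 0.0556 and 5.18 CPM in S155A mice and at 0.578 and 1.40 CPM in WT mice. There the mean of log2 CPM was lower in S155A but the mean CPM was higher. The count of genes with opposite signs therefore depends on the scale as well. An interaction of genotype and series, fitted over all genes with edgeR, called 0 of the 9 genes and 0% of all genes at an adjusted p under 0.05. At an unadjusted p under 0.05 it reached 3 of 9, beside 11.1% of all genes. They were Slco1a4 with a log2 interaction of 1.49 (standard error 0.41, unadjusted p = 0.00561, adjusted p = 0.287), Slco2b1 with 0.57 (standard error 0.21, unadjusted p = 0.0235, adjusted p = 0.369) and Abcb1a with 0.80 (standard error 0.30, unadjusted p = 0.0268, adjusted p = 0.386). The interaction of Slco1a1 was larger but uncertain, at -4.35 (standard error 2.54, unadjusted p = 0.123, adjusted p = 0.571), and it was 1.13 without S155A replicate 4. Without WT replicate 4, the adjusted p of Slco1a4 was 0.0478, where 0.269% of all genes tested were called. That fit leaves WT replicate 1, the mouse at 291 CPM, as the only WT mouse of the low series, and assumes that this lone mouse varies like the other groups. S155A replicates 2 and 3, which lay above both WT mice of their series for all 3 genes, also had the highest summed hepatocyte markers, 126683 and 133749 CPM against 92678 to 112692 CPM in the other 6 mice, and the part of this in the result was not tested.

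**Figure D4:**
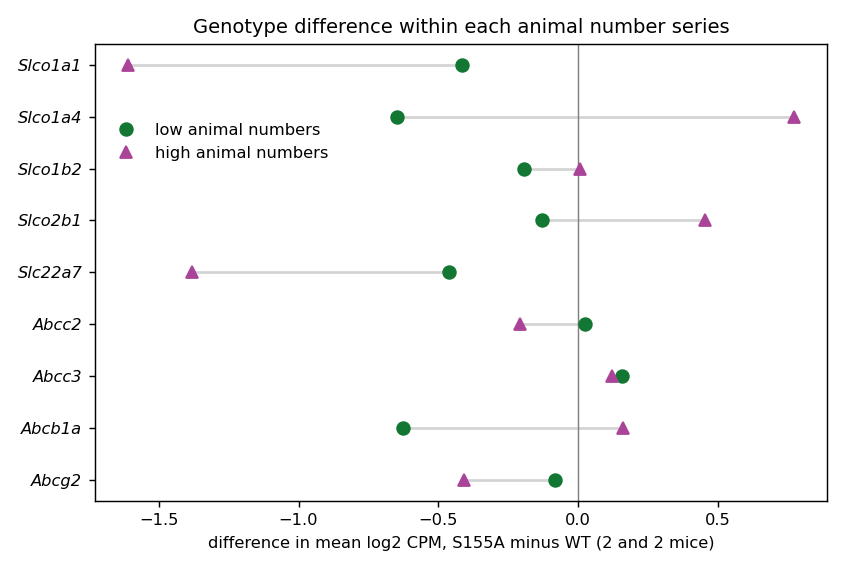
Difference in mean log2 CPM between S155A and WT mice for each transporter gene, within the low series (circles) and the high series (triangles) of animal numbers, with 2 mice of each genotype in each and a line joining the values of a gene. Slco1a4 spans from -0.65 to 0.77, while both values of Slc22a7 lie below 0 and both of Abcc3 above 0.

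Over both genotypes, Abcb1a was higher in the high series, with a mean of 6.64 CPM against 4.30 CPM and no overlap between the series (edgeR with genotype in the model, log2 difference 0.66, standard error 0.20, unadjusted p = 0.00873, adjusted p = 0.251). The gap was wider in S155A mice, at 6.99 and 7.02 against 3.52 and 3.20 CPM. In WT mice it was 6.60 and 5.94 against 5.84 and 4.64 CPM, so the log2 difference averages unlike gaps. Abcb1a was the 1 of 9 genes past an unadjusted p of 0.05 for the series, beside 12.8% of all genes. Slco1b2 did not overlap between the series either, which makes 2 of 9 genes beside 6.85% of all genes tested, and it was at 532 CPM in the high and 454 CPM in the low series (edgeR log2 difference 0.23, standard error 0.12, unadjusted p = 0.0831, adjusted p = 0.456).

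Across the 8 mice, the transporters were compared in pairs, although 8 mice are too few to exclude shared variation of moderate size. Of 36 pairs of genes, none had a correlation of log2 CPM past an adjusted p of 0.05. The closest was Abcc3 with Abcg2, which ran in opposite directions with r = -0.86 (exact permutation p = 0.00588, adjusted p = 0.212) and rho = -0.79 (exact permutation p = 0.0279, adjusted p = 0.50), and r = -0.73 after the 2 mice farthest from the median of Abcc3 were left out. Slco1a4 and Slco2b1 ran together with r = 0.74 (exact permutation p = 0.0392, adjusted p = 0.470) and rho = 0.71 (exact permutation p = 0.0576), and r = 0.96 without the 2 mice farthest from the median of Slco1a4. A series of 4 mice is too small for a correlation of its own. Among the 12099 genes with a mean of at least 1 CPM, the gene whose log2 CPM followed each transporter most closely over the 8 mice was Zfp945 for Slco1a1 (r = 0.96), Poldip3 for Slco1a4 (r = 0.98), Chmp5 for Slco1b2 (r = 0.98), Sult1a1 for Slco2b1 (r = 0.98), Pum2 for Slc22a7 (r = 0.97), Cul4a for Abcc2 (r = 0.95), Aspa for Abcc3 (r = 0.99), Slc2a2 for Abcb1a (r = 0.98) and Dpf3 for Abcg2 (r = 0.99). These are the best of many genes over few mice and are given as a description. No gene was the closest to more than 1 transporter.

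The wider transporter families gave 0 calls as well, with edgeR adjusted p-values of at least 0.993 in every list below. For the list counts at an unadjusted p under 0.05 in the main edgeR fit, the share over all genes tested was 3.4%. Of 26 other uptake transporters, 17 could be tested, 0 passed an unadjusted p of 0.05, and the median log2 fold change was 0.038. Examples are the nucleoside transporter gene Slc29a1 at 0.21 and the organic anion transporter Slc22a30 at -0.35. With the animal series as a block, Slc22a30 was the 1 of 17 that passed (edgeR unadjusted p = 0.0027), beside 4.24% of all genes. Slco4a1 was at 1.09 (standard error 0.50) but at 0.257 ± 0.141 CPM in WT and 0.547 ± 0.227 CPM in S155A mice. Of 14 other efflux transporters, 12 could be tested, with a median of -0.077. At an unadjusted p under 0.05, 2 of 12 passed, both lower in S155A, beside 3.4% of all genes in either direction and 1.98% in the lower direction. They were Abcg5 and Abcg8, which together form the sterol pump of the canalicular membrane. Abcg8 was at 77.5 ± 10.3 CPM in WT and 57.4 ± 5.22 CPM in S155A mice (SD, n = 4 each). The genotypes did not overlap for Abcg8, as for 2.3% of all genes tested. Its S155A mice were at 52.5 to 64.7 CPM and its WT mice at 67.9 to 90.6 CPM. Its log2 fold change was -0.43 (standard error 0.12, edgeR unadjusted p = 0.00441, adjusted p = 0.993). Abcg5 was at 66.7 ± 13.3 and 48.0 ± 5.76 CPM, with a log2 fold change of -0.47 (standard error 0.15, edgeR unadjusted p = 0.0112, adjusted p = 0.993), and S155A replicate 1 at 53.5 CPM lay above WT replicate 3 at 52.9 CPM. Abcg8 and Abcg5 were below WT in both series, at -0.51 and -0.34 for Abcg8 and at -0.55 and -0.37 for Abcg5.

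No regulator of the transporters was called. Of 18 listed, 17 were tested, 0 passed an unadjusted p of 0.05, and the median log2 fold change was 0.042. With the animal series as a block in edgeR, 2 of 17 passed an unadjusted p of 0.05, Cebpb higher (unadjusted p = 0.00527) and Ahr lower (unadjusted p = 0.0232), beside 4.24% of all genes. DESeq2 passed 1, Cebpb (unadjusted p = 0.0298), beside 4.07% of all genes. The values were 0.042 for Nr1i3 (CAR), 0.11 for Nr1i2 (PXR), 0.063 for Nr1h4 (FXR), 0.18 for Hnf4a and -0.046 for Ppara, with standard errors between 0.11 and 0.23. Ahr was at -0.29 and Nfe2l2 (NRF2) at -0.21, with standard errors of 0.14 and 0.15. Cebpb, an acute phase and gluconeogenic factor, was at 0.67 (standard error 0.31), from 38.4 ± 11.9 CPM in WT to 61.1 ± 25.7 CPM in S155A mice with overlap. Of 16 target genes of CAR, PXR, AHR and NRF2, 1 was higher and 1 lower at an unadjusted p under 0.05, beside 3.4% of all genes. The list median was 0.062, with 10 genes higher and 6 lower in S155A mice. Hmox1, heme oxygenase, was at 18.9 ± 5.52 CPM in WT and 32.0 ± 14.3 CPM in S155A mice (log2 fold change 0.76, standard error 0.34). The genotypes overlapped for Hmox1, and its difference was 0.096 in the low and 1.24 in the high series. Srxn1 was at 81.6 ± 10.7 and 93.3 ± 19.5 CPM (log2 fold change 0.19, standard error 0.16), with overlap. Gclc, the catalytic subunit of glutathione synthesis, was at 165 ± 25.2 and 132.5 ± 12.8 CPM (log2 fold change -0.32, standard error 0.13). The genotypes overlapped for Gclc too, at -0.057 in the low and -0.57 in the high series. Gclm, the partner subunit of Gclc, was at 94.0 ± 8.64 and 81.3 ± 4.16 CPM (log2 fold change -0.21, standard error 0.098). It did not overlap between genotypes, as for 2.3% of all genes tested.

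**Figure D5:**
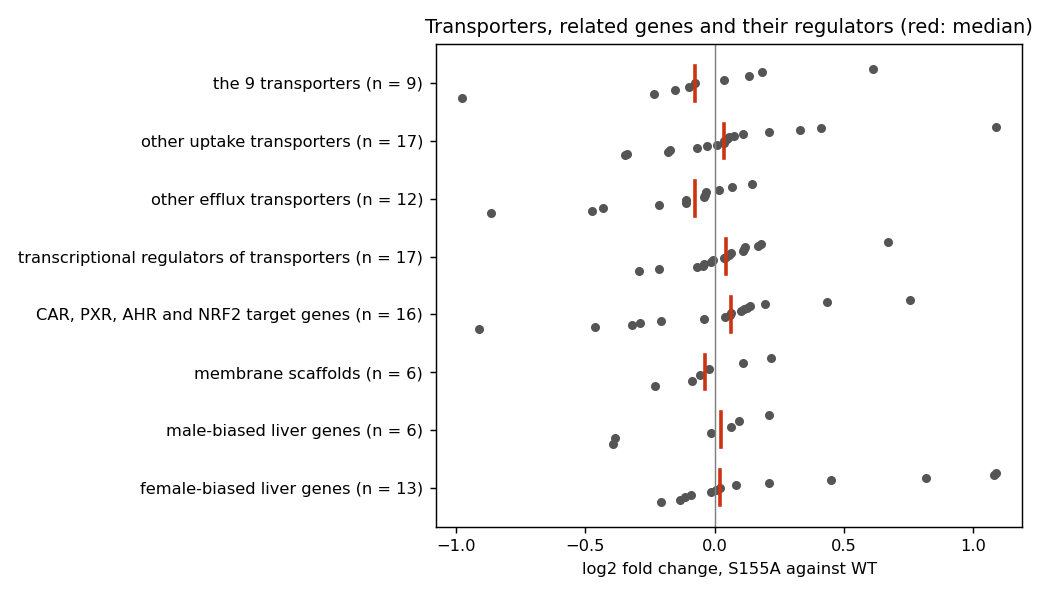
Log2 fold change of S155A against WT for each tested gene of the 9 transporters and of 7 lists of related genes, with 1 point per gene and a red bar for the list median. Every median lies between -0.077 and 0.062, and the single genes lie on both sides of 0 in every list.

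The scaffolds that hold transporters at the membrane were 6 genes with a median log2 fold change of -0.039 and 0 past an unadjusted p of 0.05, such as Slc9a3r1 (NHERF1) at 0.22, Ezr at 0.11, Rdx at -0.088 and Myo5b at -0.23. Because Slco1a1 is sex-biased in mouse liver, sex-biased genes were read in the same way. Of 9 male-biased genes 6 could be tested, with a median of 0.025, and of 13 female-biased genes all could be tested, with a median of 0.020, and 0 genes of either list passed an unadjusted p of 0.05. The male-biased Mup20 was at 30.1 ± 4.16 CPM in WT and 22.9 ± 8.97 CPM in S155A mice, and Elovl3 at 8.15 ± 4.27 and 6.22 ± 3.48 CPM. Gstp1 was at a log2 fold change of 0.093 and Selenbp2 at 0.21. The female-biased Cux2, a repressor of male-biased genes, was at 13.2 ± 8.75 and 27.9 ± 9.39 CPM, and Atp6v0d2 at 6.62 ± 2.82 and 11.7 ± 6.87 CPM, both with overlap. Cyp2b13 was at a log2 fold change of -0.093 and Hao2 at -0.21.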

How the data were processed

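The deposited values are estimated counts of each gene, made by the authors with salmon and scaled for average transcript length, with no library size normalization. The submitters' processing notes name bcl2fastq, STAR, SAMtools, MultiQC, DESeq2 and build GRCm38, with no versions. The annotation release is not given in the sources used here. Salmon divides reads that fit several genes by a model, and length scaling can change a count where isoforms differ between mice. RNA from TRIzol extraction was made into stranded mRNA libraries.

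The estimated counts were rounded. filterByExpr kept 14629 of 45706 genes, and the 8 mice were compared by edgeR 4.0.16's quasi-likelihood test in R 4.3.3 after TMM scaling, with Benjamini-Hochberg adjustment over all genes tested. CPM uses TMM library sizes, and log2 CPM a prior count of 2. Standard errors come from the F statistic. Alternatives were DESeq2 1.42.0, limma-voom (limma 3.58.1), 3 other scalings, 2 other filters, a robust fit, blocks for replicate number and animal series, and leaving out each mouse. The tests were tested on simulated data. Gene coordinates, exonic lengths and coding sequences come from GENCODE release M21 (GRCm38), which holds 45143 of the identifiers. Same-numbered mice did not deviate together in every pair, so numbers were not taken as pairs. The table held 0 columns of other samples. No library was a copy of another.

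The transporters and the gene lists were chosen with earlier results of these data known. Genes named are the 9 transporters, 7 of the 8 regulators chosen, Plin5, the closest gene to each transporter, and from each other list up to 2 genes with the smallest unadjusted p in each direction. Abcb1b was named after its values were seen, for its shared sequence. Protein sequences and the promoter windows of Slc22a7 and Abcc3 were not analysed here, and 1 regulator and its motif are not reported here.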

Additional observations from a re-analysis of the deposited data

Results flagged for a closer look

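Within groups of 4 mice, 3 values of the transporters stood apart from the rest by Dixon's test at 5% on CPM. In the 18 groups searched, chance gives about 0.9 if CPM is normally distributed. That assumption was not tested, and it is doubtful for Slco1a1, with 3, 8, 1 and 262 counts in the S155A mice. Slco1a1 in S155A replicate 4 was at 5.18 CPM against 0.0264 to 0.165 CPM in the other S155A mice. Slco1a4 in WT replicate 1 was at 291 CPM against 123 to 145 CPM in the other WT mice. Slc22a7 in S155A replicate 3 was at 2.30 CPM against 3.69 to 3.85 CPM in the other S155A mice.

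Abcb1a moved in opposite directions in the animal number series. Every S155A mouse was below every WT mouse in the low series, at -0.63 on the log2 scale, and above in the high series, at 0.16. Of all genes tested, 9.49% showed such opposite separation in both series, and the interaction had an adjusted p of 0.386 in edgeR.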

How the results depend on the processing

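The count of transporters called stayed at 0 in all 18 alternatives, as did the count of list genes called. Over all genes, DESeq2 called 6, and the other alternatives, leaving out each mouse included (0 to 0), called 0. The median log2 fold change of the 9 transporters ranged from -0.126 to 0.041 (-0.117 to 0.041 with single mice left out). Of 161 fold changes of single transporters under alternatives, 149 kept their direction, 12 reversed and 0 were called. Slco1a1 reversed to -1.11 with limma-voom, -0.90 with the replicate block and -0.39 with the animal series block. Slco1a4 reversed to -0.011 with the total count per library alone. With single mice left out, the ranges that crossed 0 were -3.36 to 1.02 for Slco1a1, -0.15 to 0.40 for Slco1a4, -0.14 to 0.041 for Slco1b2 and -0.33 to 0.021 for Abcb1a. The causes were not tested, apart from the mice left out. Slc22a7 stayed between -1.18 and -0.78, and Slco1a1 could not be fitted at a CPM of at least 1 in at least 4 mice.

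The permutation test reached p under 0.05 for 0 transporters under either alternative. With 4 against 4 mice only full separation of the genotypes gives such a p, so this adds little to the overlap given above. The interaction with the animal series called 0 to 1 transporters with single mice left out, the 1 being Slco1a4 without WT replicate 4 (1.91, adjusted p = 0.0478, beside 0.269% of all genes), a fit whose only low-series WT mouse is the high WT replicate 1, and its interaction ranged from 0.92 to 1.91. Ranges of interactions that crossed 0 were -6.19 to 1.13 for Slco1a1, -0.037 to 0.43 for Slco1b2 and -0.25 to 0.16 for Abcc3. Deviations of same-numbered mice of the genotypes had correlations of 0.056, 0.17, -0.11 and 0.13, beside -0.19 to 0.14 for mice of different number. These few values do not settle whether the number pairs the mice. With the replicate block, 0 transporters were called, and Slc22a7 was at -0.92. Depth limits Slco1a1, with 3 counts or fewer in 3 mice.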
